A study of Homo sapiens with 15 samples.

Results

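Hypoxic HIF1α-KO cells were compared with normoxic control cells of U87-MG, an established human glioblastoma cell line, by miRNA-Seq, which counts the short RNA reads that match each mature miRNA. The members were the 6 libraries that the labels give as Hif1a knock-out in hypoxia (3) and WT in normoxia (3), of 15 libraries in all. HIF1α-KO cells were kept in 1% O2 for 24 h and control cells in 21% O2 for 24 h, so that genotype and oxygen differed together between the groups. All groups were of the same cell line, grown in the same medium. A further 3 groups of 3 libraries each, kept in 1% O2 for 24 h, were used to separate the steps. These were WT (hypoxic control), Hif2a knock-out (HIF2α-KO) and Hif1a Hif2a knock-out (HIF1α/HIF2α-KO) cells. The knockouts were made with CRISPR/Cas9 guides in the lentiCRISPRv2 vector. Whether the knockout cells were a clone or a pool, and whether control cells carried an empty vector, is not given in the sources used here. The assay does not read the HIF1A mRNA, so the knockout itself could not be checked in these libraries.

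HIF1α and HIF2α are the oxygen-regulated subunits of hypoxia-inducible factors. With oxygen they are hydroxylated, bound by the VHL protein and degraded, and in hypoxia they accumulate, pair with ARNT and activate genes whose regulatory regions hold the core motif ACGTG or GCGTG. HIF1α-KO cells in hypoxia retain HIF2α as the main remaining oxygen-regulated subunit. A miRNA acts by pairing its seed, bases 2 to 8 from the 5′ end, with target mRNAs, and each hairpin precursor can give a miRNA from its 5′ arm (-5p) and its 3′ arm (-3p). miR-210 is the miRNA best known for induction by HIF, and its targets include mRNAs of mitochondrial iron-sulphur assembly.

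The comparison called 13 miRNAs, and their mature sequences are shown because they are the molecules that differed between the groups. Sequences and positions are those of RefSeq on GRCh38.p14, matched by miRNA name, in which all 15 miRNAs named by rule had an entry. Capitals mark the seed. Of the miRNAs called lower in HIF1α-KO cells, only let-7i-5p shared its seed with other miRNAs tested:
miR-210-3p: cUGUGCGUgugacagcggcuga
miR-210-5p: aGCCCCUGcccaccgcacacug
miR-105-5p: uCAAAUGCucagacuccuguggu
miR-105-3p: aCGGAUGUuugagcaugugcua
miR-767-5p: uGCACCAUgguugucugagcaug
miR-767-3p: uCUGCUCAuaccccaugguuucu
miR-503-5p: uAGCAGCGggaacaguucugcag
miR-449c-5p: uAGGCAGUguauugcuagcggcugu
let-7i-5p: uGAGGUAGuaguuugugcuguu

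The miRNAs called higher in HIF1α-KO cells came from 3 hairpins. miR-758-3p and miR-379-3p differ at 4 of 22 bases and share a run of 12 near their 3′ ends, but their seeds differ:
miR-758-3p: uUUGUGACcugguccacuaacc
miR-379-3p: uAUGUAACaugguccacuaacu
miR-582-5p: uUACAGUUguucaaccaguuacu
miR-582-3p: uAACUGGUugaacaacugaacc

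Both arms were called for miR-210, miR-582, miR-105 and miR-767. Their hairpins are shown with the arms in capitals, so that the molecules called together can be seen on 1 precursor. Since miR-105 has 2 hairpin genes with the same mature arms, only 1 of them is given:
MIR210: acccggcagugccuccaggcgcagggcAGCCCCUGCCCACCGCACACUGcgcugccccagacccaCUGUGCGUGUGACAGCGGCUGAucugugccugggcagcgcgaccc
MIR582: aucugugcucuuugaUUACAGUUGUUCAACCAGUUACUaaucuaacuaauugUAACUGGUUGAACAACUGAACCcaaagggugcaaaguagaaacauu
MIR105-1: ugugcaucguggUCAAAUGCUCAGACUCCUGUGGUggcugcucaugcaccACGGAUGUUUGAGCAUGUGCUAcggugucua
MIR767: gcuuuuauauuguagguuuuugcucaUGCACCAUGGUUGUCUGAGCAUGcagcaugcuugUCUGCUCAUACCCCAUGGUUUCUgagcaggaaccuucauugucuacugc

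Total counts ranged from 12478344 to 16258777 in normoxic control and from 10360337 to 20648259 in HIF1α-KO libraries. A floor of 3 counts equalled at most 0.290 CPM (counts scaled to a library of 1e6) in the 6 libraries, and covers counting error only. The 2 groups did not separate cleanly in overall profile. Summed miR-126, an endothelial miRNA, scaled by the total count, was 17.8, 28.3 and 37.0 CPM in normoxic replicates 1 to 3, 6.83 and 3.97 CPM in HIF1α-KO replicates 1 and 2, and 35.9 CPM in HIF1α-KO replicate 3. The first principal component of the 15 libraries, with 41.4% of the variance, put HIF1α-KO replicate 3 (10.0) beside the normoxic libraries (5.74 to 9.72) and away from HIF1α-KO replicates 1 and 2 (-6.88 and -8.07). Results are therefore given also without each library and within these sets. The sources do not say that the replicates were separate cultures, so p-values measure the spread between libraries, which may be technical.

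In HIF1α-KO cells under hypoxia, miR-210-3p and miR-210-5p were at 25.99% and 26.43% of their level in normoxic control cells, the 4 miRNAs of the cluster of miR-105 and miR-767 were 35.8% to 54.8% of it, and let-7i-5p, miR-503-5p and miR-449c-5p were also lower. miR-758-3p, miR-379-3p and both arms of miR-582 were higher, at 276% to 405% of the normoxic level. Of 562 miRNAs tested with edgeR's quasi-likelihood test, 13 (2.31%) had an adjusted p under 0.05, 4 higher (0.712%) and 9 lower (1.6%) in HIF1α-KO cells. In all 13 the HIF1α-KO libraries lay outside the range of the normoxic libraries, which was the case for 150 of all 562 (26.7%), 63 higher (11.2%) and 87 lower (15.5%). At an unadjusted p under 0.05 there were 96 miRNAs (17.1%), 45 higher (8.01%) and 51 lower (9.07%). The split between directions depended on scaling, since scaling by the total count alone gave 4 higher of 7 called and limma on quantile-normalized values 5 higher of 9. The count fell to between 3 and 9 with 1 of the 6 libraries left out, which also leaves fewer samples, and 3 miRNAs, miR-210-3p, miR-210-5p and miR-105-5p, were past the threshold in all 6 such fits.

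**Figure D1:**
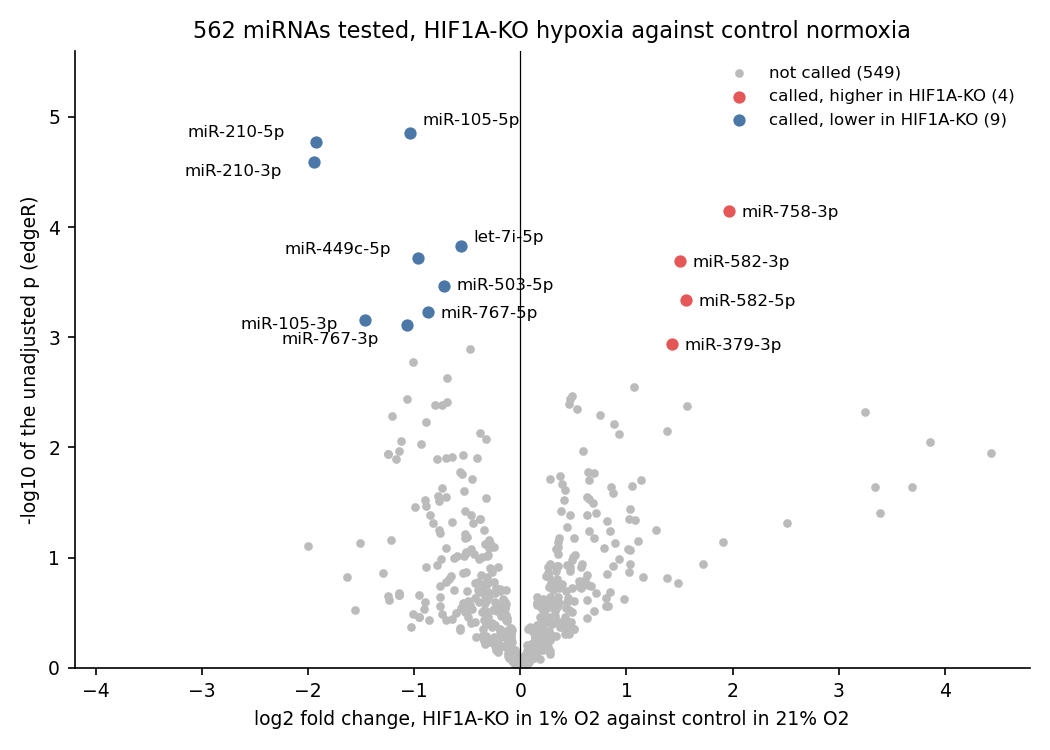
Each point is 1 of the 562 miRNAs tested, with the log2 fold change of HIF1α-KO cells in 1% O2 against control cells in 21% O2 on the x axis and -log10 of the unadjusted edgeR p on the y axis. The 4 miRNAs called higher are red, the 9 called lower are blue, and the 549 others are grey. Some grey points lie farther out on the x axis than any called miRNA, up to a log2 fold change above 4, but lower on the y axis.

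**Figure D2:**
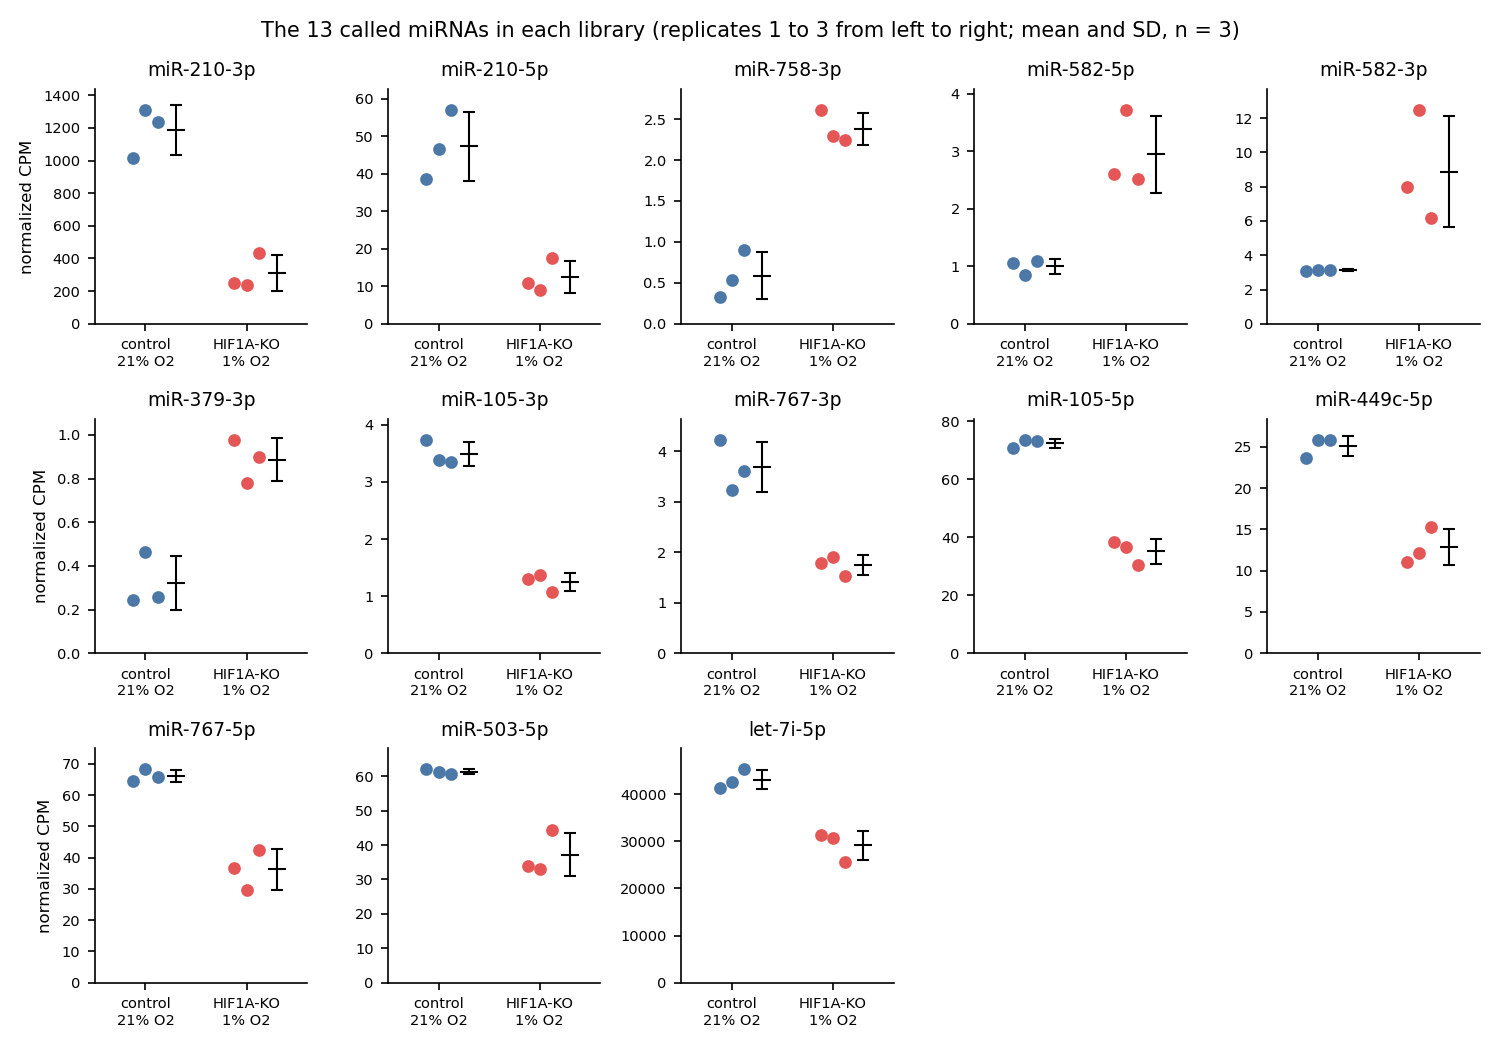
Normalized CPM of the 13 called miRNAs in each library, for normoxic control (blue) and hypoxic HIF1α-KO (red) cells, with the mean and SD (n = 3) to the right of the points and each y axis starting at 0. In every panel the 3 red points lie all above or all below the 3 blue points.

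miR-210-3p was measured at 1018, 1308 and 1236 CPM in normoxic control replicates 1 to 3 and at 250, 241 and 436 CPM in HIF1α-KO replicates 1 to 3. The groups did not overlap, and HIF1α-KO replicate 3 was the highest of its group. The level fell by 1.94 on the log2 scale (SE 0.31, 95% interval -2.62 to -1.27, edgeR adjusted p = 0.00479), to 25.99% of the normoxic mean. miR-210-3p lies on chromosome 11 at 568112-568133 on the minus strand, within a hairpin that GENCODE v29 places in an intron of MIR210HG, a long non-coding RNA gene. The two-sided exact permutation test of the CPM gave p = 0.1, the smallest that 3 against 3 libraries allow.

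miR-210-5p, the less abundant arm of the same hairpin, moved with it. It was at 38.5, 46.6 and 57.0 CPM in normoxic control and 11.0, 9.14 and 17.4 CPM in HIF1α-KO libraries. The groups again did not overlap, and the log2 fold change was -1.92 (SE 0.30, adjusted p = 0.00471 by edgeR). Both arms are 22 bases long, and the ratio of 3p to 5p counts was 26.4, 28.0 and 21.7 in normoxic control and 22.7, 26.3 and 25.0 in HIF1α-KO libraries. The ratios of the groups thus overlapped while both levels differed. Within the library sets, the miR-210-3p level of HIF1α-KO replicate 3 was -1.45 on the log2 scale from the normoxic mean, and that of replicates 1 and 2 was -2.28.

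Across all 5 groups, the miR-210 levels were low in both groups that carry the HIF1α knockout. For miR-210-3p, the hypoxic control libraries were at 1152, 1039 and 935 CPM and overlapped the normoxic ones (log2 fold change -0.19, 95% interval -0.84 to 0.46, edgeR adjusted p = 0.841). No increase with 24 h of 1% O2 was therefore detected in control cells. The HIF2α-KO libraries lay at 1443, 1996 and 1210 CPM, all above the HIF1α-KO libraries (log2 2.33, adjusted p = 0.00240), and the HIF1α/HIF2α-KO libraries at 181, 146 and 348 CPM, overlapping them (log2 -0.46, adjusted p = 0.546). In order, HIF1α/HIF2α-KO and HIF1α-KO were lowest and not told apart by the test, followed by hypoxic control, normoxic control and HIF2α-KO, of which the last did not differ from normoxic control beyond the spread (log2 0.38, adjusted p = 0.583). miR-210-5p followed the same division, with 43.5 to 56.2 CPM in HIF2α-KO and 10.7 to 16.9 CPM in HIF1α/HIF2α-KO cells.

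**Figure D3:**
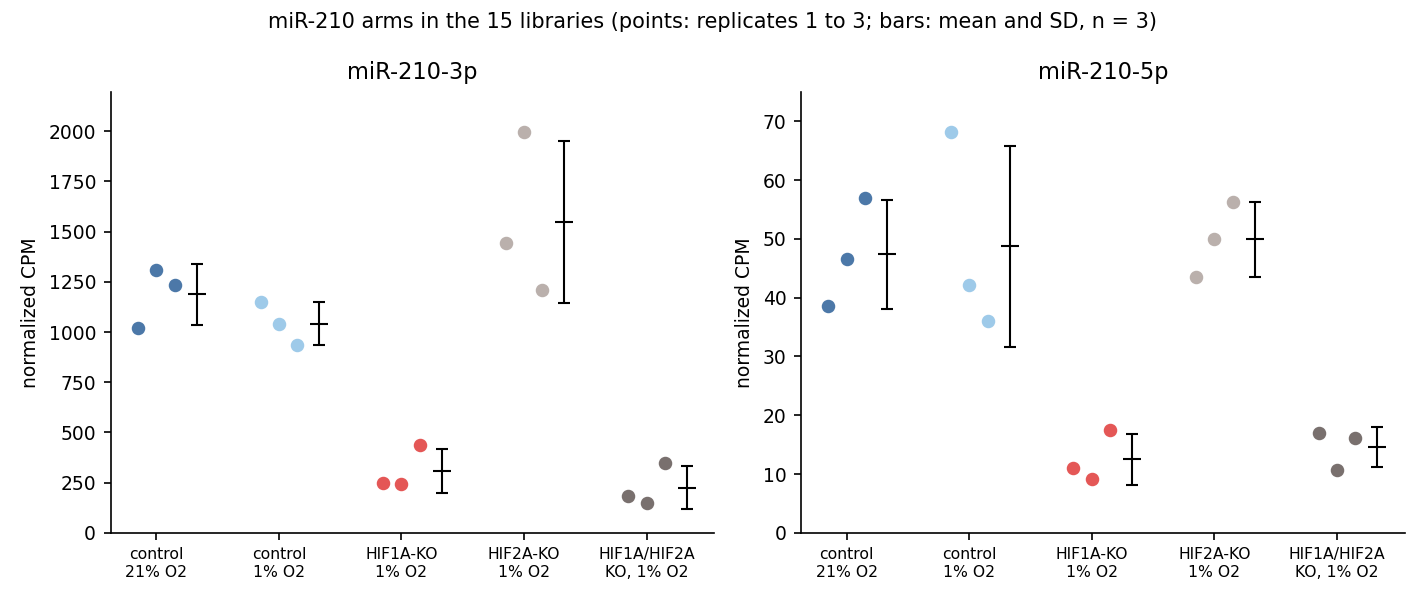
Normalized CPM of miR-210-3p (left) and miR-210-5p (right) in each of the 15 libraries by group, with the mean and SD (n = 3) beside the points and y axes from 0. HIF1α-KO and HIF1α/HIF2α-KO libraries lie below all other libraries in both panels.

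The promoter of MIR210HG, the host of miR-210, is shown because the HIF core motif can be read in it. The 300 bases run from 250 before to 50 after the RefSeq start, at chr11:568408-568707 on the minus strand of GRCh38.p14, with matches to ACGTG or GCGTG on either strand in capitals:
MIR210HG: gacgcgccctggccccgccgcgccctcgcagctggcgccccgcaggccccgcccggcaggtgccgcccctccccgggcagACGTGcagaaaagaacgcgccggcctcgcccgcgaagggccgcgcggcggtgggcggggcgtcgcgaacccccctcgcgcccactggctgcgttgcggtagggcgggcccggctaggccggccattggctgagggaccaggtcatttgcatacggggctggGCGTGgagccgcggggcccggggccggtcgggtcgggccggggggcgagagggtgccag
It holds 1 match to ACGTG and 1 to GCGTG. Of 35116 promoters of the same length, 21.4% hold ACGTG, 36.5% GCGTG and 48.4% either, and 23.1% hold at least as many matches as MIR210HG. The promoter of MIR503HG also holds 2 matches to either motif, that of MIRLET7IHG 3 and that of CDC20B, the host of miR-449c, 0. Promoters of the hosts of the other called miRNAs were not examined singly.

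The cluster of miR-105 and miR-767 was lower as a whole. These cancer-germline miRNAs, silent in most adult tissues outside the germline and active in some tumours, lie on the X chromosome in an intron of GABRA3, a GABA-A receptor subunit gene. All 4 members tested were called lower (percent called lower over all miRNAs 1.6), with a median log2 fold change of -1.06 against -0.0011 over all 562. MIR105-1 (chrX:152392219-152392299) lies 1.12 kb and MIR105-2 (chrX:152394412-152394492) 0.88 kb from MIR767 (chrX:152393421-152393529), all on the minus strand.

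miR-105-5p, the most firmly measured of the 4, was at 70.7, 73.6 and 73.0 CPM in normoxic control and 38.5, 36.6 and 30.4 CPM in HIF1α-KO libraries. HIF1α-KO replicate 3, which resembled the normoxic libraries in its miR-126 level, was the lowest. The log2 fold change was -1.04 (SE 0.16, edgeR adjusted p = 0.00471), and it stayed between -1.07 and -0.93 with any library left out. miR-767-5p was at 64.5, 68.3 and 65.7 CPM in normoxic control and 36.7, 29.5 and 42.6 CPM in HIF1α-KO libraries (log2 -0.87, SE 0.20, adjusted p = 0.0332). This arm is known to target TET mRNAs, which encode enzymes that oxidize 5-methylcytosine.

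The 3p arms were far less abundant. miR-105-3p had 46, 44 and 52 counts in normoxic control and 16, 28 and 12 in HIF1α-KO libraries, or 3.35 to 3.74 and 1.08 to 1.37 CPM (log2 -1.46, SE 0.34, edgeR adjusted p = 0.0359). miR-767-3p had 52, 42 and 56 counts against 22, 39 and 17, or 3.24 to 4.22 and 1.53 to 1.91 CPM (log2 -1.07, SE 0.25, adjusted p = 0.0366). Neither overlapped between the groups. The calls of the 2 3p arms were lost without any 1 of the 6 libraries (adjusted p 0.0705 to 0.1496 for miR-105-3p and 0.0765 to 0.166 for miR-767-3p), and that of miR-767-5p without any library but HIF1α-KO replicate 3 (0.128 to 0.225).

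let-7i-5p carried the largest absolute change among the called miRNAs, with 13900 CPM less in HIF1α-KO cells. The let-7 family restrains proliferation and stemness genes such as HMGA2 and RAS. let-7i-5p was at 41270, 42640 and 45260 CPM in normoxic control and 31250, 30600 and 25610 CPM in HIF1α-KO libraries. The groups did not overlap, and the log2 fold change was -0.56 (SE 0.11, edgeR adjusted p = 0.0163). The hairpin (chr12:62603686-62603769, plus strand) lies in an intron of the lincRNA AC048341.1 and overlaps an exon of LINC01465 on the opposite strand in GENCODE v29.

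Of the 8 other miRNAs tested with the let-7 seed, 0 were called (1.6% of all miRNAs were called lower), 5 were below 0 and 3 above, and their median log2 fold change was -0.12. let-7g-5p, named after its values were seen, differs from let-7i-5p at 2 of 22 bases and was just outside the threshold. It was at 35090, 36640 and 39730 CPM in normoxic control and 28990, 28520 and 22940 CPM in HIF1α-KO libraries (log2 -0.47, SE 0.12, edgeR adjusted p = 0.0518). let-7a-5p had a log2 fold change of -0.19 (SE 0.17) and let-7f-5p of 0.27 (SE 0.37). How reads that match several let-7 members were assigned is not given in the sources used here. With limma on quantile-normalized values the let-7i-5p change was -0.17 (adjusted p = 0.484), and the edgeR call was lost without normoxic replicate 1, 2 or 3 or HIF1α-KO replicate 2 or 3 (0.0582 to 0.114).

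miR-503-5p, a member of the extended miR-16 family that restrains the cell cycle, was at 62.0, 61.3 and 60.6 CPM in normoxic control and 34.1, 33.0 and 44.4 CPM in HIF1α-KO libraries. The normoxic libraries lay within a narrow range, above all HIF1α-KO libraries (log2 -0.72, SE 0.15, edgeR adjusted p = 0.0241). Its hairpin (chrX:134546328-134546398, minus strand) lies in an intron of MIR503HG, 0.22 kb from that of miR-424. miR-424-3p had a log2 fold change of -0.38 (SE 0.17, adjusted p = 0.278) and miR-424-5p, which is known to act on the CUL2 scaffold of the VHL ligase, of -0.34 (SE 0.24, adjusted p = 0.506). Over the 7 members of the cluster of miR-424 and miR-503 tested, 1 was called lower (1.6% over all) and the median was -0.34.

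miR-449c-5p belongs to the group of miR-34 and miR-449, whose members restrain the cell cycle and act in multiciliated cells. It was at 23.6, 25.8 and 25.8 CPM in normoxic control and 11.1, 12.1 and 15.3 CPM in HIF1α-KO libraries, without overlap (log2 -0.97, SE 0.19, edgeR adjusted p = 0.0163). The hairpin (chr5:55172262-55172353, minus strand) lies in an intron of CDC20B, 1.64 kb from that of miR-449a, whose log2 fold change was -0.89 (SE 0.27, adjusted p = 0.110). The calls of miR-503-5p and miR-449c-5p were lost without any 1 of the 6 libraries except HIF1α-KO replicate 3 (adjusted p 0.1001 to 0.194 and 0.0657 to 0.139).

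Among the miRNAs called higher, miR-758-3p and miR-379-3p come from the imprinted 14q32 cluster, a large group of miRNAs expressed from the maternal chromosome. Both were rare. miR-758-3p had 4, 7 and 14 counts in normoxic control and 32, 47 and 25 in HIF1α-KO libraries, or 0.325, 0.540 and 0.902 against 2.61, 2.30 and 2.25 CPM. The HIF1α-KO libraries were close to each other and above all normoxic libraries (log2 1.97, SE 0.35, edgeR adjusted p = 0.00994). miR-379-3p had 3, 6 and 4 counts against 12, 16 and 10 (log2 1.43, SE 0.35, adjusted p = 0.0495). The groups of miR-379-3p did not overlap either. The call of miR-758-3p was lost without normoxic replicate 2 (adjusted p = 0.0676), and that of miR-379-3p without any 1 of the 6 libraries (0.0685 to 0.227).

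The 2 hairpins, MIR379 (chr14:101022066-101022132) and MIR758 (chr14:101026020-101026107, both plus strand), lie in introns of MEG8 in GENCODE v29. Of the 24 14q32 miRNAs tested, 2 were called higher (0.712% over all) and 0 lower, 18 lay above 0 and 6 below, and the median log2 fold change was 0.38 against -0.0011 over all miRNAs. miR-379-5p, the other arm of MIR379, had a log2 fold change of 0.69 (SE 0.29, edgeR adjusted p = 0.237), miR-543 of 1.08 (SE 0.49, adjusted p = 0.278) and miR-382-3p of -0.65 (SE 0.30, adjusted p = 0.285). Scaled by the total count, the whole list summed to 126.1, 158 and 121 CPM in HIF1α-KO and 70.8, 131 and 114 CPM in normoxic control libraries, so that the sums overlapped.

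Both arms of miR-582, from a hairpin in an intron of the phosphodiesterase gene PDE4D (chr5:59703606-59703703, minus strand), were higher in HIF1α-KO cells. miR-582-3p was at 3.09, 3.16 and 3.16 CPM in normoxic control and 7.99, 12.5 and 6.20 CPM in HIF1α-KO libraries (log2 1.51, SE 0.30, edgeR adjusted p = 0.0163). miR-582-5p was at 1.06, 0.848 and 1.096 CPM against 2.61, 3.71 and 2.52 CPM (log2 1.56, SE 0.34, adjusted p = 0.0284). In both, HIF1α-KO replicate 2 was the highest and no library overlapped with the other group. The call of miR-582-3p was lost without normoxic replicate 1, 2 or 3 or HIF1α-KO replicate 2 (0.0765 to 0.125), and that of miR-582-5p without any library but HIF1α-KO replicate 3 (0.0549 to 0.142).

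Across the 119 hairpins with a single locus and both arms tested, the log2 fold changes of the arms had a Pearson r of 0.39 and a Spearman rho of 0.52, given as a description across hairpins whose arms share libraries and depth. The 3 of these hairpins with both arms called had arms that differed by at most 0.20 on the log2 scale, and the median difference over all 119 was 0.21. In 3 further hairpins 1 arm was called.

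Next, the combined difference was read as the sum of an oxygen step (hypoxic against normoxic control) and a genotype step (HIF1α-KO against control, both in 1% O2). In the fit used here the log2 fold changes of the steps add up to the combined one by construction, and the comparisons share libraries, so that each is given with its own values. The hypoxic control libraries, which both steps share, were divided like the HIF1α-KO libraries. Their summed miR-126, scaled by the total count, was 51.9, 4.40 and 4.95 CPM in replicates 1 to 3. On the first principal component they lay at 7.81, -5.31 and -7.40. The oxygen step called 0 of 562 miRNAs (0%) with edgeR, 0 with DESeq2 and 0 with limma. With edgeR, 35 (6.23%) had an unadjusted p under 0.05. The genotype step called 7 miRNAs (1.25%), all lower in HIF1α-KO cells, but 0 when only its own 6 libraries were fitted with edgeR (67 at an unadjusted p under 0.05) and 12 with DESeq2.

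For miR-210-5p the steps were 0.04 and -1.96 (edgeR adjusted p = 0.971 and 0.00382), and for miR-210-3p they were -0.19 and -1.76 (0.841 and 0.0126). The fall thus lay in the genotype step for both arms. miR-105-5p (0.06 and -1.105), miR-105-3p (0.15 and -1.61), miR-767-3p (0.22 and -1.29) and miR-503-5p (0.01 and -0.73) were also past the threshold in the genotype step (adjusted p 0.00382, 0.0295, 0.0194 and 0.0295). miR-767-5p had steps of -0.17 and -0.70 (adjusted p = 0.836 and 0.123).

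let-7i-5p (-0.28 and -0.28) and miR-449c-5p (-0.54 and -0.43) were called only for both steps together, with adjusted p of 0.701 and 0.287 and of 0.701 and 0.381 for the single steps. The same held for miR-767-5p and for the 4 miRNAs called higher. miR-379-3p had steps of 1.71 and -0.28 (edgeR adjusted p = 0.115 and 0.807), and hypoxic control cells, at 1.11, 0.951 and 1.16 CPM, were as high as HIF1α-KO cells, at 0.978, 0.782 and 0.899 CPM. miR-758-3p had steps of 1.16 and 0.80 (adjusted p = 0.661 and 0.309), miR-582-5p of 0.95 and 0.61 (0.701 and 0.463) and miR-582-3p of 0.49 and 1.01 (0.785 and 0.139).

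**Figure D4:**
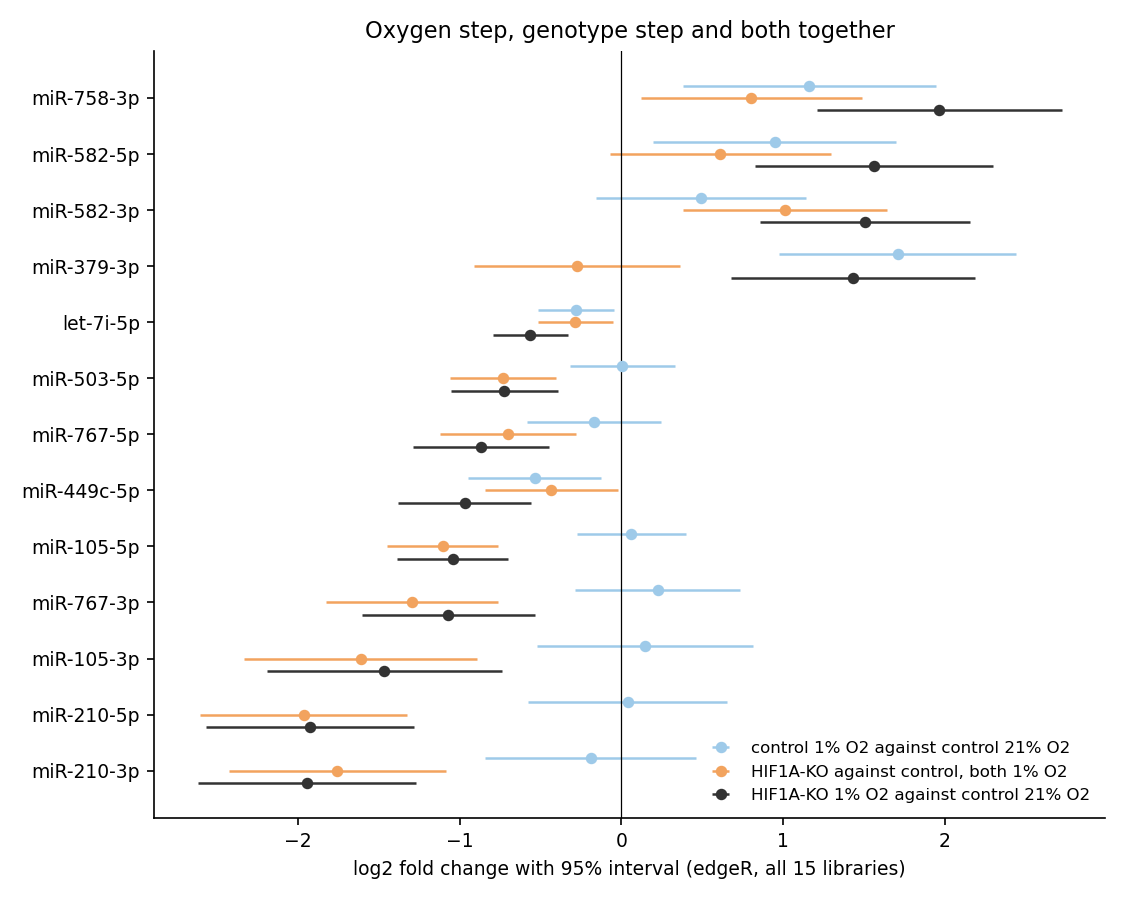
Log2 fold changes with 95% intervals of the 13 called miRNAs for the oxygen step (light blue), the genotype step (orange) and both together (black), from the edgeR fit of all 15 libraries. For miR-210, miR-105, miR-767 and miR-503-5p the orange and black points lie close together with the light blue points near 0, whereas for miR-379-3p the light blue point lies near the black one.

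HIF1α-KO cells were next set beside HIF1α/HIF2α-KO cells in the same 1% O2, which lack HIF2α as well. miR-758-3p was at 0.567, 0.379 and 0.574 CPM in HIF1α/HIF2α-KO cells, below the 2.25 to 2.61 CPM of HIF1α-KO cells (log2 -2.21, SE 0.36, edgeR adjusted p = 0.0157). miR-379-3p was at 0.189, 0.303 and 0.164 CPM, below the 0.782 to 0.978 CPM of HIF1α-KO cells (log2 -1.96, adjusted p = 0.0232). Its HIF1α/HIF2α-KO values rest on 3, 4 and 2 counts, around the floor of 3 counts. The levels of both 14q32 miRNAs in HIF1α/HIF2α-KO cells thus lay within or below the normoxic range. Over all 562 miRNAs, 8 were called in this comparison, all lower in HIF1α/HIF2α-KO cells. The other 11 of the 13 did not pass the threshold. Of these, miR-105-3p (1.80 to 2.80 CPM, edgeR adjusted p = 0.213) and miR-767-3p (2.50 to 2.96 CPM, 0.256) lay above all HIF1α-KO libraries. So did miR-503-5p (44.9 to 45.3 CPM, 0.438), whereas miR-449c-5p (8.28 to 10.0 CPM, 0.285) lay below them. miR-582-3p, at 7.87, 8.49 and 12.1 CPM, overlapped HIF1α-KO cells (log2 0.09, adjusted p = 0.916), and let-7i-5p, at 27400, 27850 and 22870 CPM, did too (log2 -0.16, adjusted p = 0.546).

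HIF2α-KO cells, which retain HIF1α, had more miR-210-3p and miR-210-5p than HIF1α-KO cells (log2 2.33 and 2.00, edgeR adjusted p = 0.00240 and 0.00323) and more miR-503-5p, at 66.0, 69.9 and 52.5 CPM (log2 0.76, adjusted p = 0.0254). The miR-105 and miR-767 arms had positive differences that did not pass, from 0.66 for miR-105-5p (adjusted p = 0.0626) to 1.36 for miR-105-3p (adjusted p = 0.0626). miR-378i, which was not called against normoxic control, was at 0.548, 0.381 and 0.665 CPM in HIF2α-KO and 1.55, 1.61 and 1.98 CPM in HIF1α-KO cells (log2 -1.66, adjusted p = 0.0224).

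Most of the 28 miRNA lists examined held no called member. Of the 27 lists with a tested member, 5 held a call and 22 did not. Among the 18 hypoxia-linked miRNAs tested, the 2 miR-210 arms were called lower and 0 were called higher (2.31% called over all), with a median log2 fold change of -0.04. The others of this list lay between -0.34 for miR-424-5p and 0.72 for miR-26b-5p, none past an unadjusted p of 0.05. Of 9 miRNAs reported to target HIF1A, 0 were called (2.31% over all) and 2 had an unadjusted p under 0.05 (8.01% higher over all). The 2 were miR-20b-5p (0.70, SE 0.26, edgeR adjusted p = 0.183) and miR-20a-5p (0.46, SE 0.21, adjusted p = 0.268). These and miR-17-5p (0.27) lay above the normoxic range (11.2% over all), and miR-429 (-1.30, SE 0.82) below it (15.5% over all). The miR-17-92 cluster had a median of 0.15 over 9 tested and its paralogs of -0.05 over 9, with 0 called in each (2.31% over all).

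The miR-378 family, encoded in part with the PGC-1β gene and linked to metabolism, had 8 of 9 members above 0 and a median of 0.45. In it, 5 were at an unadjusted p under 0.05 (8.01% higher over all) and 0 were called (2.31% over all). miR-378c was at 184, 180 and 173 CPM in normoxic control and 236, 286 and 229 CPM in HIF1α-KO libraries, without overlap (log2 0.49, SE 0.14, edgeR adjusted p = 0.0947). miR-378i was at 0.650, 1.00 and 0.773 CPM against 1.55, 1.61 and 1.98 CPM (log2 1.07, SE 0.29, adjusted p = 0.0926). These miRNAs share a seed, and miR-378c and miR-378i differ at 2 of the 21 bases compared, so that their counts may not be independent:
miR-378c: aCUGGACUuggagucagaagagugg
miR-378i: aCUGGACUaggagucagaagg

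The cluster of miR-532 and miR-502 on the X chromosome had 12 of 13 members above 0 and a median of 0.35, while the miR-105, miR-767 and miR-503 miRNAs of the same chromosome were lower. In this cluster miR-500a-5p and miR-500b-5p had the same CPM in each of the 6 libraries, so that the members may not be independent. Over the 48 X-linked miRNAs tested, 5 were called, all lower (1.6% over all), 30 lay above 0 and 18 below (278 and 284 over all), and the median was 0.15. The miR-29 family (median 0.42, 6 tested), the miR-146 pair (0.42, 3 tested) and p53-linked miRNAs (0.34, 7 tested) had 3, 2 and 2 members higher at an unadjusted p under 0.05 (8.01% over all) and 0 called (0.712% over all). Medians were 0.16 for the miR-30 family, 0.16 for the family of miR-130, miR-301 and miR-454, 0.13 for the cluster of miR-183, miR-96 and miR-182, 0.26 for HOX cluster miRNAs, 0.0034 for the miR-181 family, -0.02 for the family of miR-15, miR-16 and miR-195 and -0.04 for the miR-320 family.

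**Figure D5:**
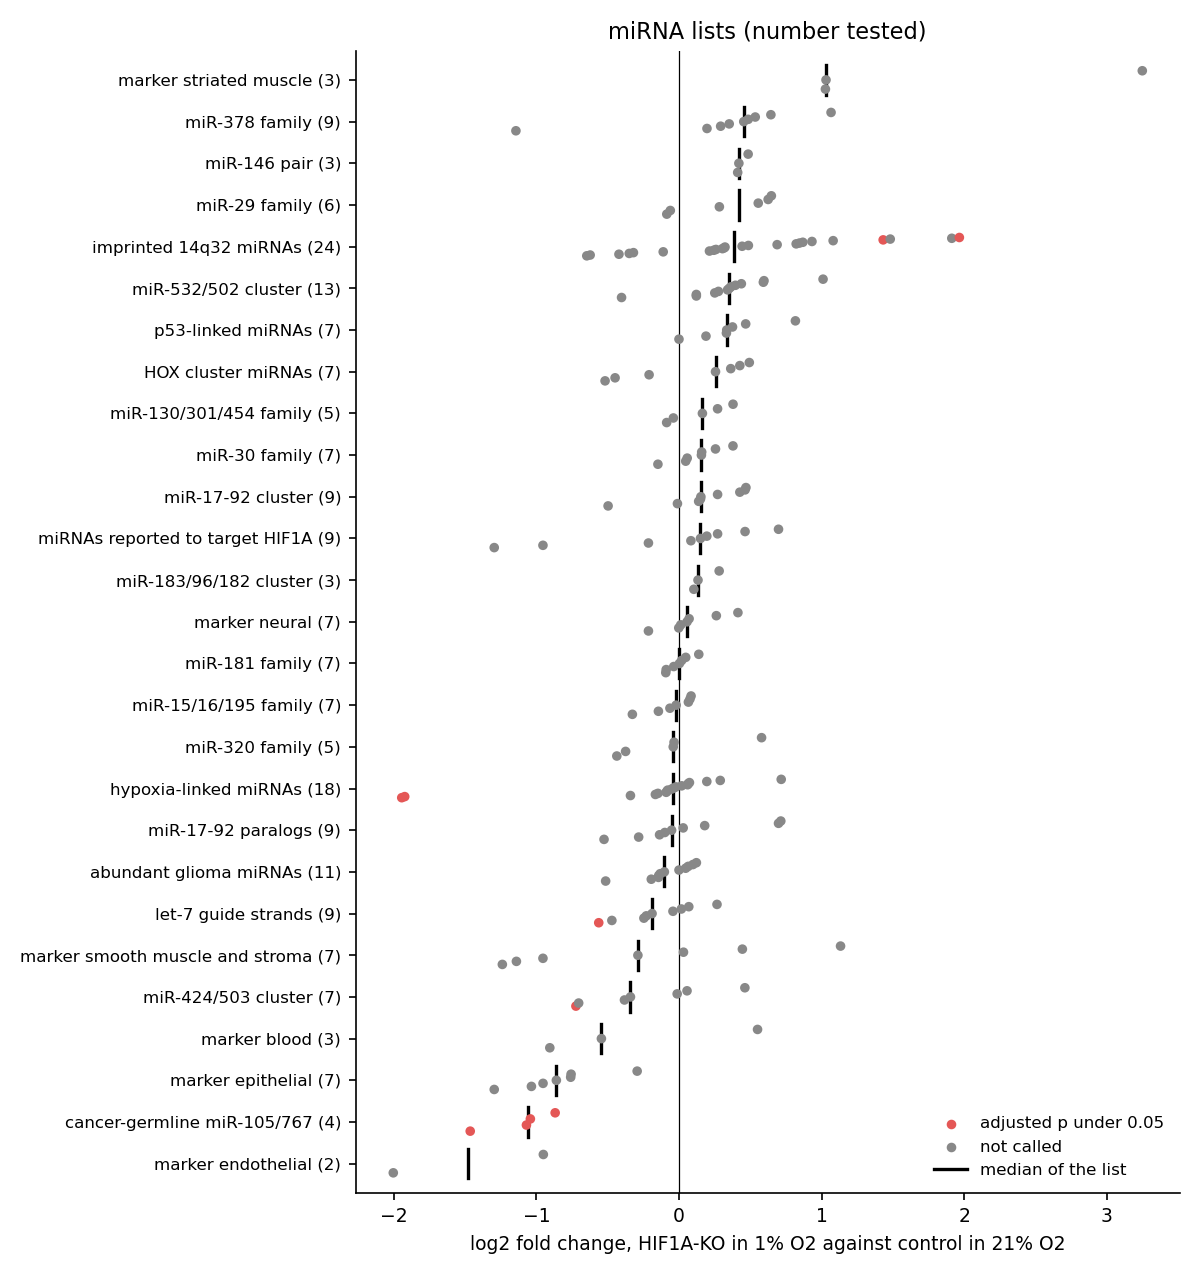
Log2 fold changes of the tested members of each list (number tested in parentheses), ordered by the list median (black line), with called miRNAs in red. The cluster of miR-105 and miR-767 is the only list with every member red, and the marker lists lie at both ends.

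Over the 11 abundant glioma miRNAs tested, a list that does not hold let-7i-5p, the median log2 fold change was -0.10 and 0 were called (2.31% over all). miR-21-5p, the most abundant miRNA in both groups and known to repress PDCD4, had a mean of 190200 ± 22000 CPM (SD, n = 3) in normoxic control and 199000 ± 11690 CPM (SD, n = 3) in HIF1α-KO cells. Its log2 fold change was 0.06 (95% interval -0.21 to 0.34). miR-100-5p had means of 170400 ± 3203 and 154500 ± 23390 CPM (SD, n = 3 each; log2 -0.14, 95% interval -0.42 to 0.13). The 13 called miRNAs held between 2.82% and 4.47% of the counts of a library. The median half-width of the 95% interval over all miRNAs was 0.61 on the log2 scale, which matches an unadjusted p of 0.05. A call needed a lower p, since the called miRNA with the highest edgeR p, miR-379-3p, had an unadjusted p of 0.001144. Changes below 0.61, and some above it, were thus not detectable for many miRNAs.

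The largest fold changes were not calls. Of the 7 miRNAs with a log2 fold change above 2, 0 were called, all 7 overlapped between the groups and all 7 were lower in HIF1α-KO replicate 3 than in replicates 1 and 2. miR-1-3p, a miRNA of striated muscle, was at 40.4 and 33.9 CPM in HIF1α-KO replicates 1 and 2, 5.21 CPM in replicate 3 and 0.9751, 1.85 and 5.41 CPM in normoxic control (log2 3.25, SE 0.97, edgeR adjusted p = 0.0984). miR-374a-5p was at 222, 217 and 7.91 CPM in HIF1α-KO and 18.1, 9.18 and 50.9 CPM in normoxic control libraries (log2 2.51, SE 1.16, adjusted p = 0.285). This is the same division of libraries that miR-126 shows, in the other direction.

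None of the 29 markers of other cell types tested was called (2.31% called over all). The striated muscle list had 3 of 3 tested above 0 (median 1.03), all 3 at an unadjusted p under 0.05 (8.01% higher over all). Its sums, scaled by the total count, were 10.7 to 48.5 CPM in HIF1α-KO and 1.92 to 8.06 CPM in normoxic control libraries and did not overlap. Taken singly, each of the 3 miRNAs did overlap between the groups. The endothelial list (median -1.48, 2 tested), the epithelial list (-0.86, 7 tested), the blood list (-0.54, 3 tested) and the smooth muscle and stroma list (-0.29, 7 tested) lay below 0, and the neural list, with miR-9 and miR-128, was near 0 (0.06, 7 tested). The sums ranged from 3.97 to 35.9 against 17.8 to 37.0 CPM for the endothelial, from 43.2 to 94.0 against 73.4 to 99.6 CPM for the epithelial, from 4.504 to 19.0 against 12.02 to 18.3 CPM for the blood, from 221 to 540 against 284 to 483 CPM for the smooth muscle and stroma, and from 8242 to 21790 against 11960 to 17460 CPM for the neural list, HIF1α-KO first. miR-486-5p, a blood miRNA, and miR-208b-3p, of heart muscle, were at 0 in all 6 libraries. Other blood miRNAs were present, with 1 of the 3 tested above 0 in log2 fold change and 2 below. Of these, miR-451a was at 8.61, 10.5 and 14.8 CPM in normoxic control and 2.36, 2.10 and 13.9 CPM in HIF1α-KO libraries. The liver list had 0 of its 2 miRNAs among those tested.

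With the miR-126 set of each library as a covariate, 3 of the 13 were called, miR-210-3p, miR-210-5p and miR-105-5p, and the adjusted p of the other 10 lay between 0.0717 and 0.185 in edgeR. The log2 fold changes of those 10 under the covariate kept their direction, with -0.56 for let-7i-5p, -0.69 for miR-503-5p, -1.36 for miR-105-3p, 1.49 for miR-379-3p and 1.76 for miR-758-3p among them, and the largest shift was that of miR-582-3p, from 1.51 to 1.11. All 13 had the same direction in HIF1α-KO replicate 3 and in replicates 1 and 2, each set against the normoxic mean. That follows from the lack of overlap between the groups in all 13 and is no separate evidence. The sizes differed, at -0.47 in replicate 3 and -0.87 in replicates 1 and 2 for miR-503-5p. They were 0.98 and 1.70 for miR-582-3p and -1.70 and -1.39 for miR-105-3p (log2). The change was larger in replicate 3 for miR-379-3p, miR-105-3p, miR-105-5p, miR-767-3p and let-7i-5p, and smaller there for the other called miRNAs. The GC content of the mature miRNA had a Spearman rho of -0.38 with the log2 fold change across 513 miRNAs, given as a description across miRNAs that share libraries. With offsets for GC content 12 of the 13 were called. How far these differences between libraries enter the other results was not tested.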

How the data were processed

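Small RNA of 15 U87-MG libraries was sequenced on an Illumina platform. The authors deposited raw read counts per mature miRNA, and the submitters' processing notes name HISAT2, StringTie and DESeq2. The genome build, read filters and the treatment of reads that match several miRNAs are not given in the sources used here. The members and miRNA lists were chosen with earlier results of these data known. Groups came from the labels. Of 1707 miRNAs listed, 562 passed edgeR's filter on low counts and were fitted over all 15 libraries with TMM factors and edgeR's quasi-likelihood test (edgeR 4.0.16, R 4.3.3), with Benjamini-Hochberg adjustment over all 562 and a threshold of 0.05. A miRNA past it is said to be called. CPM are counts scaled to a TMM-adjusted library of 1e6. Named by rule were both miR-210 arms, the called miRNAs whose groups did not overlap (up to 12 a direction), non-overlapping miRNAs by lowest p where fewer than 6 passed in a direction, and up to 4 passing members of a list. Other miRNAs were chosen after their values were seen. Alternatives used DESeq2 1.42.0, limma 3.58.1, other scalings and filters, GC offsets, a replicate block and each replicate left out. The test was checked on simulated counts. Replicates were no copies of each other (smallest chi-square per degree of freedom 49.3).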

Additional observations from a re-analysis of the deposited data

How the results depend on the processing

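The directions of the named miRNAs did not reverse under any alternative run. Of the alternative values, 313 were on the same side of the threshold, 157 no longer past it and 2 newly past it. These counts pool 26 results, from the combined difference and from other comparisons of named miRNAs. Against 13 calls, scaling by the total count alone gave 7 (3 lower, 6 of the 7 among the 13), DESeq2's Wald test gave 20 (7 higher), no filter on low counts 26 (16 higher, 7 of the 26 among the 13), and the miR-126 set as a covariate 3 (0 higher, 3 lower). limma gave 4 lower, a fit of the 6 libraries compared 5 lower, and a minimum of 10 counts in each library 2 higher. With 1 replicate left out, 3 to 9 were called, 0 to 3 higher and 3 to 6 lower. With only the libraries of higher miR-126, which leave 1 HIF1α-KO library whose spread is assumed to equal that of the others, edgeR called 0 (0 higher, 0 lower, 96 at an unadjusted p under 0.05). This alternative and the replicate block with GC offsets were chosen after seeing the data. For the oxygen step no filter gave 15 in place of 0. For the genotype step, with 7 calls, DESeq2 gave 12, the 6 libraries alone 0, the higher miR-126 libraries 0, and leaving out 1 replicate 2 to 6. The cause of these shifts was not tested, except that fits with fewer libraries have fewer samples. Whether the replicate numbers pair the libraries is not given in the sources used here. Deviations from the group mean correlated at 0.14, -0.30 and -0.22 between same-numbered HIF1α-KO and normoxic libraries. Between differently numbered ones they correlated at -0.39 to 0.41. These values cannot decide on pairing, since HIF1α-KO replicate 3 lay apart from replicates 1 and 2. The replicate block called 9, all among the 13, and the replicate block with GC offsets 10. No scaling moved the median of all miRNAs by more than 0.0834 on the log2 scale. For miR-379-3p, miR-758-3p and other miRNAs with few counts, depth limits the precision.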
